A study of Homo sapiens with 13 samples.

Results

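Human AC16 cells that had been preconditioned and then given FCCP were compared with AC16 cells given FCCP alone, gene by gene, in 3 RNA sequencing libraries a group. The 6 libraries were taken by their treatment label, Preconditioning+FCCP or FCCP, from the 13 libraries of the series, whose other 7 were 3 control and 4 preconditioning libraries. AC16 is an established human line made by fusing cells of the adult heart ventricle with a transformed fibroblast line, and the labels give every library as a myocyte of wildtype genotype. FCCP is a protonophore, a small lipid-soluble acid that carries protons across membranes. The construct mOpto, which the design text names as expressed in cells of the study, is on no sample label. The labels therefore do not say whether the cells given FCCP alone carried it, and they give no dose or duration for either treatment. No label says that the libraries of a group came from separate cultures, so every p-value here measures the spread between libraries, which may be technical. In the text below, "preconditioned" stands for the preconditioning+FCCP libraries, values listed for a gene follow the library numbers 1, 2 and 3 of each group, and log2 changes are preconditioned minus FCCP ± standard error (SE). Levels in control and preconditioning-alone libraries are means ± SD of 3 and 4 libraries.

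Mitochondria pump protons out across their inner membrane, and the resulting potential drives ATP synthesis and the import of proteins. An uncoupler such as FCCP lets the protons back in, so that respiration runs without making ATP. Cells are known to answer such depolarisation through the integrated stress response, in which the protease OMA1 and the messenger DELE1 lead to translation of the transcription factor ATF4, and through removal of damaged mitochondria. Preconditioning is a mild stress given before a stronger one, known in the heart for lessening injury when blood flow is lost and returns.

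The 6 libraries held 14970803 to 20636229 counts in genes, and 2 of them stood apart from their groups. FCCP 1 and preconditioned 3 had 6.49% and 6.42% of their gene counts in mitochondrial genes, against 1.33% to 2.32% in the other 4, and FCCP 1 correlated better with preconditioned 3 (r = 0.965, across genes) than with FCCP 2 (0.958) or FCCP 3 (0.952). The group means of this share were 3.36% ± 2.70 (SD, n = 3) preconditioned and 3.33% ± 2.75 (SD, n = 3) for FCCP, with p = 1 in a two-sided exact permutation test that cannot go below 0.10. Reads aligned to several places made up 7.13%, 10.0% and 9.79% of the FCCP libraries and 4.69%, 5.22% and 8.28% of the preconditioned ones; a second measure of the libraries thus ran partly along the groups. Many group results below are therefore given also without FCCP 1 and preconditioned 3, or with a term for 2 library sets. Not every value that moved is printed. The largest gap in this share of reads separates the sets. All 3 FCCP libraries and preconditioned 3 were in the higher set, preconditioned 1 and 2 in the lower one. The term thus ran largely along the groups, and what a call lost under it owed to set or group was not tested. Markers of the heart muscle cell were nearly missing: 17 of 24 were too low to test, among them MYH6, MYH7 and the troponin TNNT2, and the 7 tested summed to 5.90 to 8.35 CPM (the count scaled by library size) under FCCP and 8.36 to 9.94 CPM preconditioned. All 15 fibroblast markers were tested and summed to 7734 to 9753 CPM under FCCP and 1836 to 3376 CPM preconditioned. The 10 smooth muscle markers summed to 286 to 444 and 290 to 393 CPM, the 9 endothelial ones tested (of 12) to 259 to 336 and 164 to 216 CPM, and the 4 immune ones tested (of 13) to 10.7 to 18.2 and 2.26 to 4.69 CPM. In bulk libraries such as these, fewer cells of a type and less RNA per cell cannot be told apart.

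Of 16756 genes tested, 5976 (35.7%) differed between the groups at an adjusted p under 0.05, 3007 higher (17.9%) and 2969 lower (17.7%) in the preconditioned libraries. For 5381 of the 5976 the 3 values of one group all lay above the 3 of the other. Over all genes tested, 21.9% lay apart in this way with the preconditioned libraries higher and 21.3% with them lower. Genes called by the test tend to lie apart, so the count is no separate support. Changes of more than 2-fold were called for 1472 genes upward and 1941 downward, and the median over all tested genes was 0.01. Scaling by library totals alone raised that median to 0.19, and with it the called genes were 64.1% higher in place of 50.3%. Without FCCP 1 and preconditioned 3 the count was 7377, of which 5580 were among the 5976; with the library set term it was 3629, that is 11.3% of all genes higher and 10.4% lower. Leaving out FCCP 2, FCCP 3 or preconditioned 2 lowered it to 3964, 3848 and 3910.

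**Figure D1:**
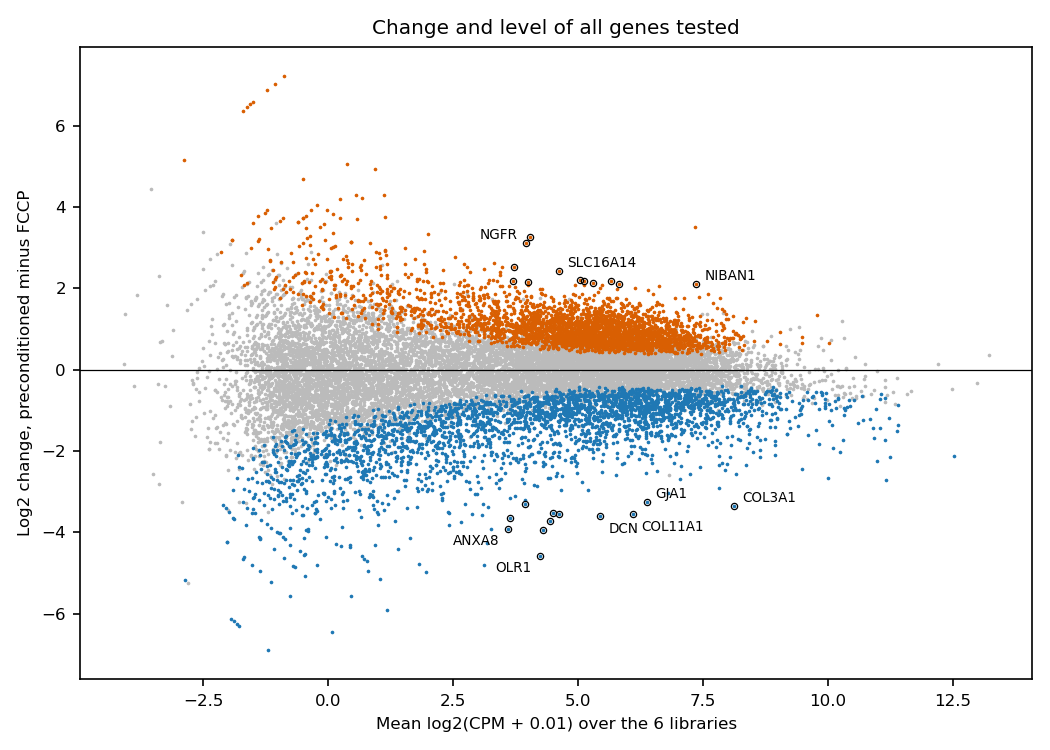
Log2 change, preconditioned minus FCCP (vertical), against mean log2 CPM over the 6 libraries (horizontal) for the 16756 genes tested. Orange points are the 3007 genes called higher, blue points the 2969 called lower, grey points the rest; the circled points, some of them named, are the 12 largest rises and the 12 largest falls among well expressed genes whose groups do not overlap.

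Among the largest falls were genes of a scavenger receptor, a gap junction protein and an uncoupling protein. OLR1, the scavenger receptor for oxidised LDL, had 15.5, 22.1 and 71.4 CPM under FCCP and 1.22, 0.780 and 2.66 CPM preconditioned (log2 change -4.57 ± 0.78, adjusted p = 0.000755). GJA1 encodes connexin 43, the main gap junction protein of the heart ventricle, and had 82.8, 186 and 183 CPM under FCCP and 15.6, 11.6 and 20.5 CPM preconditioned (log2 change -3.24 ± 0.34, adjusted p = 0.000169). In both genes every FCCP library lay above every preconditioned one, as it did in the mitochondrial uncoupling protein gene UCP2, with 23.6, 33.4 and 78.9 CPM under FCCP and 3.13, 2.63 and 5.88 CPM preconditioned (log2 change -3.55 ± 0.50, adjusted p = 0.000297). Controls had 199 ± 69.1 CPM of GJA1 and preconditioning alone 146 ± 27.6 CPM. AKR1C3, an aldo-keto reductase that acts on steroids and prostaglandins, and ANXA8, an annexin, fell, with log2 changes of -3.52 and -3.91. EHD2, an ATPase of the caveolar neck, had 405, 376 and 356 CPM under FCCP and 63.8, 60.3 and 100.5 CPM preconditioned (log2 change -2.34 ± 0.24, adjusted p = 0.000169). MPI, which makes mannose 6-phosphate for glycosylation, and the guidance ligands EFNB3 and SEMA6B fell, with log2 changes of -2.53, -2.38 and -2.75, each with an adjusted p of 0.000169.

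The largest rises included a nerve growth factor receptor, a transporter and a chaperone. NGFR, the p75 receptor of neurotrophins, had 8.33, 0.724 and 0.690 CPM under FCCP and 23.5, 41.4 and 19.1 CPM preconditioned (log2 change 3.11 ± 0.76, adjusted p = 0.00572); all 3 FCCP values were low, with FCCP 1 the highest of them. SLC16A14, a member of the monocarboxylate transporter family, had 5.69, 9.08 and 8.22 CPM under FCCP and 44.7, 54.5 and 24.6 CPM preconditioned (log2 change 2.43 ± 0.29, adjusted p = 0.000212). HSPA4L, a nucleotide exchange factor of the HSP110 family, had 16.9, 9.41 and 8.63 CPM under FCCP and 53.7, 60.9 and 47.7 CPM preconditioned (log2 change 2.22 ± 0.33, adjusted p = 0.000383). Here too no FCCP value reached the lowest preconditioned one. The control libraries had 18.5 ± 10.1 CPM of HSPA4L and those of preconditioning alone 16.9 ± 2.33 CPM. ST3GAL1, a sialyltransferase of the Golgi, rose by 2.18, the golgin GCC1 by 2.12 and the stress-induced translation regulator NIBAN1 by 2.11 on the log2 scale. TTI1, a cochaperone that PI3K-related kinases such as mTOR need to fold, had the smallest adjusted p among the rises, with 42.5, 36.5 and 39.2 CPM under FCCP and 88.6, 118 and 101 CPM preconditioned (log2 change 1.38 ± 0.15, adjusted p = 0.000188). PRDM4, JADE3, BCL7A and MAP3K4, all with adjusted p-values of 0.000207 to 0.00022, rose by 1.52, 1.67, 1.63 and 1.60.

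**Figure D2:**
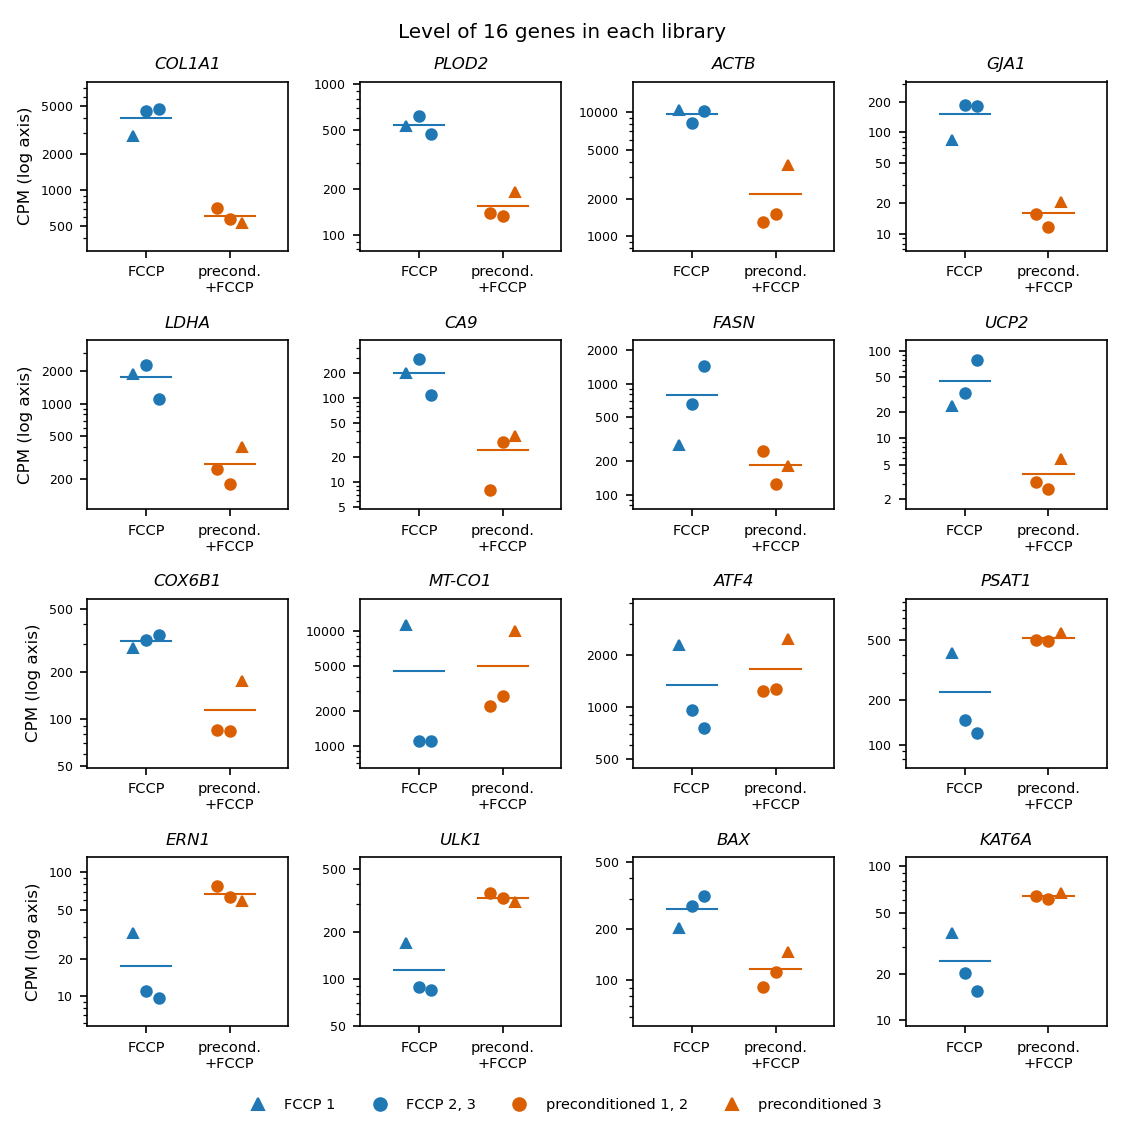
TMM-scaled CPM on a log axis (vertical) of 16 genes named in the text, in the 3 FCCP (blue) and the 3 preconditioned libraries (orange); triangles are FCCP 1 and preconditioned 3, circles the other 4 libraries, and bars the group means. In CA9, LDHA and COL1A1 the groups are apart in all 6 libraries, while in ATF4 and PSAT1 FCCP 1 lies within or beside the preconditioned values.

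Collagen and the enzymes that build its fibres were lower in the preconditioned libraries. Of 17 collagen genes tested 10 fell and none rose (median -0.83), with 17.7% of all genes lower and a median of 0.01 over all. COL1A1, the alpha 1 chain of type I collagen, had 2803, 4515 and 4704 CPM under FCCP and 713, 575 and 536 CPM preconditioned (log2 change -2.72 ± 0.28, adjusted p = 0.000169), and COL3A1 had 295, 559 and 673 CPM under FCCP and 46.7, 43.3 and 59.3 CPM preconditioned (log2 change -3.35 ± 0.47, adjusted p = 0.000297). COL1A1 stood at 3999 ± 1182 CPM in controls and 3663 ± 265 CPM after preconditioning alone. COL1A2, COL5A2, COL8A1 and COL11A1 fell, with log2 changes of -2.45, -1.97, -1.94 and -3.55. COL6A2, a chain of type VI collagen, which forms beaded filaments around cells, did not pass the test (log2 change -0.39 ± 0.22, adjusted p = 0.162). Its groups overlapped, with 1485, 1098 and 1366 CPM under FCCP and 739, 965 and 1299 CPM preconditioned. The 3 FCCP libraries held 9360 to 12270 CPM of the listed collagens in all and the preconditioned ones 3928 to 4419 CPM.

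Folding and crosslinking enzymes moved as a larger share, 18 of 23 lower and none higher (median -1.05). SERPINH1 (HSP47), the collagen chaperone of the endoplasmic reticulum, had 876, 715 and 563 CPM under FCCP and 223, 273 and 316 CPM preconditioned (log2 change -1.41 ± 0.20, adjusted p = 0.000324). PLOD2, the lysyl hydroxylase that prepares telopeptides for crosslinks, had 527, 615 and 468 CPM under FCCP and 138, 133 and 191 CPM preconditioned (log2 change -1.80 ± 0.27, adjusted p = 0.000374). LOXL2, a lysyl oxidase that makes the crosslinks, had 653, 684 and 626 CPM under FCCP and 252, 261 and 319 CPM preconditioned (log2 change -1.24 ± 0.20, adjusted p = 0.000540). No value of one group reached the other in these 3 genes. For PLOD2, controls had 671 ± 264 CPM and preconditioning alone 514 ± 63.5 CPM. LOXL3, the prolyl 3-hydroxylase P3H3 and the procollagen peptidase ADAMTS2 fell, with log2 changes of -1.51, -1.23 and -1.35. Among matrix glycoproteins and proteoglycans 19 of 28 fell and none rose, 11 when scaled by library totals. SPARC, a collagen-binding protein, had 1896, 2225 and 1714 CPM under FCCP and 522, 547 and 681 CPM preconditioned (log2 change -1.74 ± 0.25, adjusted p = 0.000305), and the elastic fibre protein EFEMP2 had 200.3, 182 and 227 CPM under FCCP and 66.3, 70.9 and 74.01 CPM preconditioned (log2 change -1.53 ± 0.19, adjusted p = 0.000220). DCN (decorin), which coats collagen fibrils, had the lowest log2 change, -3.59. Fibronectin, FN1, the main provisional matrix protein, had 1604, 1127 and 1140 CPM under FCCP and 1668, 1132 and 1203 CPM preconditioned and did not pass (adjusted p = 0.880). Under the library set term 8 of 17 collagens, 13 of 23 folding enzymes and 12 of 28 glycoproteins were lower and none was higher. COL11A1 and DCN lost their calls under that term, with adjusted p-values of 0.0598 and 0.0739.

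**Figure D3:**
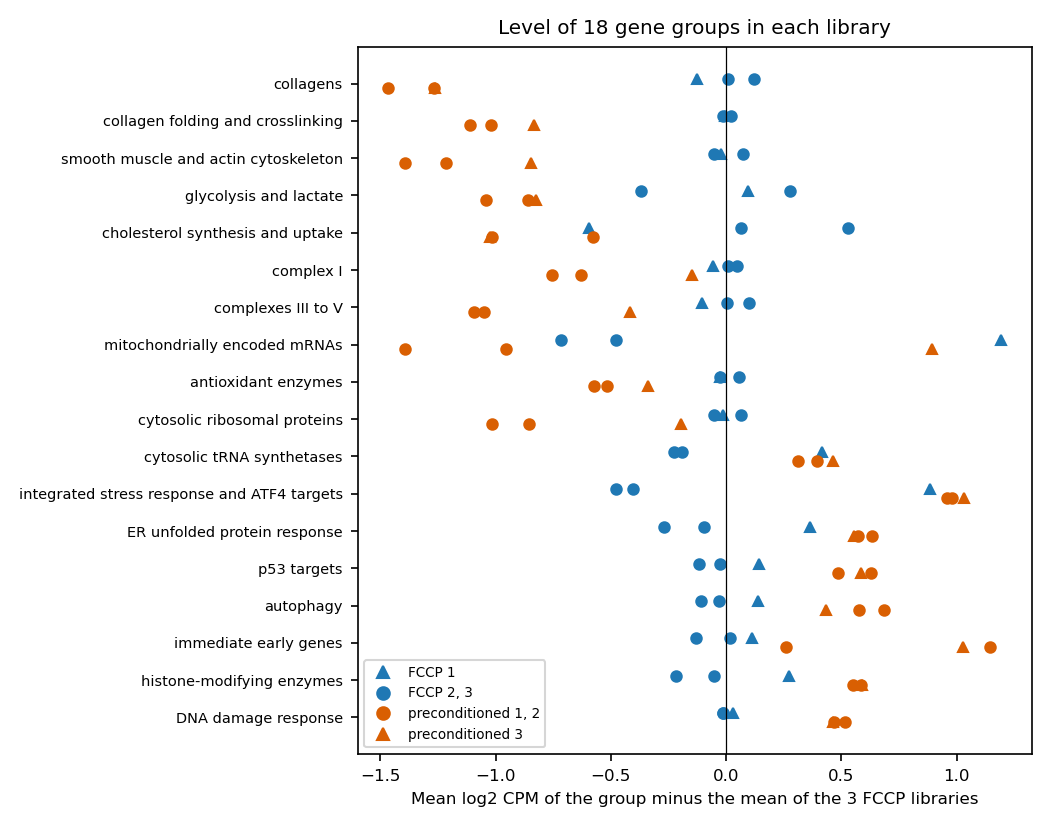
Mean log2 CPM of the tested genes of 18 groups in each library, minus the mean of the 3 FCCP libraries (horizontal). Blue marks are FCCP and orange marks preconditioned libraries, triangles FCCP 1 and preconditioned 3; the matrix, actin and glycolysis groups are lower in all 3 preconditioned libraries, whereas in the mitochondrially encoded, ribosomal and stress response groups the 2 triangles lie close together or between the other libraries.

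The fibroblast markers, which share COL1A1, COL1A2, COL3A1 and other matrix genes with the groups above, fell in 12 of 15 cases. That count was 9 under the library set term. THY1, a surface glycoprotein of fibroblasts, had 366, 288 and 358 CPM under FCCP and 88.9, 78.99 and 140.2 CPM preconditioned (log2 change -1.72 ± 0.22, adjusted p = 0.000248), and the PDGF receptor gene PDGFRB had 86.4, 92.9 and 94.3 CPM under FCCP and 41.003, 34.1 and 29.7 CPM preconditioned (log2 change -1.38 ± 0.20, adjusted p = 0.000326). Levels of THY1 were 270.4 ± 59.001 CPM in controls and 244 ± 12.5 CPM with preconditioning alone. DDR2, a receptor tyrosine kinase that binds fibrillar collagen, was the 1 member that rose, with 138, 84.9 and 73.9 CPM under FCCP and 337, 228 and 177 CPM preconditioned (log2 change 1.32 ± 0.29, adjusted p = 0.00301). Whether the share of fibroblast-like cells differed between the groups was not tested.

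Genes of the actin cytoskeleton were lower as well, 22 of 33 with none higher (median -1.05). The library set term left 19 lower and none higher (median -0.78). The 2 nonmuscle actins, ACTB and ACTG1, build the stress fibres and the cell cortex. ACTB had 10377, 8178 and 10191 CPM under FCCP and 1306, 1503 and 3772 CPM preconditioned (log2 change -2.13 ± 0.37, adjusted p = 0.000896); preconditioned 3 was the highest of its group and still below every FCCP library. ACTG1 had 3646, 2709 and 3676 CPM under FCCP and 689.9, 519.6 and 898 CPM preconditioned (log2 change -2.25 ± 0.26, adjusted p = 0.000191). ACTB stood at 13193 ± 4044 CPM in controls and 7282 ± 1409 CPM with preconditioning alone. Their coding sequences are near-identical and have processed copies in the genome, so the counts of each are less certain than those of other genes. CNN1 and CNN2, calponins that bind actin filaments, TAGLN2 (transgelin 2) and the myosin light chain MYL6 fell, with log2 changes of -2.16, -1.80, -1.86 and -1.66. Of 24 integrin and focal adhesion genes 8 fell and 1 rose. By library totals 3 fell and 2 rose, neither above the 13.3% lower and 23.8% higher of all genes in that setting. Other settings differed. With the library set term 9 fell and none rose, against 10.4% of all genes lower. With the length and GC trend removed 10 fell and 1 rose, against 16% lower. TNS1 (tensin 1), which ties integrins to actin, had 17.4, 18.6 and 15.3 CPM under FCCP and 7.59, 6.65 and 7.12 CPM preconditioned (log2 change -1.26 ± 0.20, adjusted p = 0.000570), and the integrin subunits ITGB3 and ITGA5 fell, with log2 changes of -1.02 and -0.64.

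Glycolysis was lower along most of the pathway: 16 of 24 genes fell and 1 rose (median -1.06). Under the library set term 13 fell and none rose (median -0.87). GPI, the second enzyme of the pathway, had 816, 863 and 600.3 CPM under FCCP and 218, 169 and 293 CPM preconditioned (log2 change -1.74 ± 0.29, adjusted p = 0.000721), and PFKL, the liver-type phosphofructokinase, had 479, 539.6 and 436 CPM under FCCP and 176, 178 and 202 CPM preconditioned (log2 change -1.39 ± 0.18, adjusted p = 0.000248). PGK1, the first enzyme to make ATP, had 1351, 1991 and 927 CPM under FCCP and 443, 342 and 426 CPM preconditioned (log2 change -1.82 ± 0.32, adjusted p = 0.000908). All 3 were lower in every preconditioned library. At the end of the pathway LDHA, which turns pyruvate into lactate, had 1876, 2302 and 1118 CPM under FCCP and 249, 179.7 and 403 CPM preconditioned (log2 change -2.67 ± 0.40, adjusted p = 0.000376), and the lactate exporter SLC16A3 (MCT4) had 274, 535 and 446 CPM under FCCP and 91.9, 88.3 and 73.3 CPM preconditioned (log2 change -2.31 ± 0.29, adjusted p = 0.000220). LDHA stood at 1716 ± 788 CPM in controls and 1640 ± 455 CPM with preconditioning alone. HK2, the hexokinase that starts the pathway, had 119, 84.4 and 24.1 CPM under FCCP and 97.5, 89.5 and 109 CPM preconditioned (log2 change 0.38 ± 0.38, adjusted p = 0.467), with overlapping groups.

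Many glycolytic genes are known targets of the transcription factor HIF-1, which binds the letters ACGTG. The promoters of 4 genes that fell are shown as RefSeq gives them on GRCh38.p14, each as the 250 bases before the start of the gene on its own strand, with ACGTG or its reverse complement in capitals. They lie at chrX:78103998-78104247 (PGK1, plus strand), chr11:18394313-18394562 (LDHA, plus), chr9:35673678-35673927 (CA9, plus) and chr10:131981924-131982173 (BNIP3, minus).
PGK1: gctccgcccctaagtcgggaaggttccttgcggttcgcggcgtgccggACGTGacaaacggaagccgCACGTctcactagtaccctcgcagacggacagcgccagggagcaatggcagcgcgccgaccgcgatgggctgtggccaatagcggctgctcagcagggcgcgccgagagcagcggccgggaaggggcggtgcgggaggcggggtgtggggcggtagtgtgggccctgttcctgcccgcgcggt
LDHA: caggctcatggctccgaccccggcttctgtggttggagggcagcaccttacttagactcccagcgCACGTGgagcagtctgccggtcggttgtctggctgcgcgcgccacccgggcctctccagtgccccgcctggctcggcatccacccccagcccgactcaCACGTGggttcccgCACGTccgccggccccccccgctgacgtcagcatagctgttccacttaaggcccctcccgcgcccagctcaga
CA9: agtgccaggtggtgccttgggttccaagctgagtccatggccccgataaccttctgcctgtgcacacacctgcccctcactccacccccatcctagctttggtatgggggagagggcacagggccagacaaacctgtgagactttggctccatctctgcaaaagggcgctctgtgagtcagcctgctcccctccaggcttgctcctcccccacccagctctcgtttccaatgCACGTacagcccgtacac
BNIP3: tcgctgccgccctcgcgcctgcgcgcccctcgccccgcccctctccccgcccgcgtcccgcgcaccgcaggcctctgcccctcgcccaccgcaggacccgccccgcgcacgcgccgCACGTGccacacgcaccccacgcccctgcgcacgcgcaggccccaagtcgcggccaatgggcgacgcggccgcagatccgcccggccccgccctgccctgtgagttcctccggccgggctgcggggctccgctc
LDHA held 5 matches, PGK1 and BNIP3 2 each and CA9 1, counting both strands, so that CACGTG, a palindrome, counts on each. Among all 35116 promoters that RefSeq gave, 18.5% held the motif. It was in 8 of the 21 glycolysis genes with an entry. These were 6 of the 16 that fell (37.5%) and 2 of the 5 not called (40%). The motif was also in 9 of 15 other HIF-1 targets. Those were 2 of the 4 that fell, 1 of the 2 that rose and 6 of the 9 not called.

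The other HIF-1 targets did not move as a group: 5 of 19 fell, 2 rose, and the median of -0.14 turned positive under library totals (0.04), the library set term (0.23) or removal of the length and GC trend (0.03). CA9, the carbonic anhydrase that acidifies the surroundings of hypoxic cells, had 199, 289.9 and 109 CPM under FCCP and 8.05, 29.7 and 35.1 CPM preconditioned (log2 change -3.04 ± 0.65, adjusted p = 0.00273). The mitophagy receptor BNIP3 had 410.4, 625 and 223 CPM under FCCP and 107, 106 and 134 CPM preconditioned (log2 change -1.86 ± 0.41, adjusted p = 0.00342). PDK1, the kinase that shuts pyruvate dehydrogenase, had 38.4, 52.8 and 23.3 CPM under FCCP and 14.9998, 13.4 and 16.1 CPM preconditioned (log2 change -1.36 ± 0.34, adjusted p = 0.00670). All 3 kept the groups apart, and with the library set term none passed, at adjusted p-values of 0.0969, 0.0857 and 0.137. CA9 stood at 102 ± 76.2 CPM in controls and 50.8 ± 8.80 CPM with preconditioning alone. VEGFA, the vessel growth factor, had 188, 121 and 51.9 CPM under FCCP and 124, 160.2 and 155 CPM preconditioned (log2 change 0.28 ± 0.34, adjusted p = 0.536). HIF1A itself had 140.1, 192 and 292 CPM under FCCP and 123, 96.9 and 174 CPM preconditioned (log2 change -0.66 ± 0.25, adjusted p = 0.0501), just short of the threshold and with overlapping groups. EGLN1, the oxygen sensor that marks HIF-1 alpha for destruction, rose by 1.19 (adjusted p = 0.0129), a call lost without FCCP 3 or without preconditioned 1, where the adjusted p reached 0.0751.

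Cholesterol genes were mostly lower in the preconditioned libraries, and fatty acid synthesis genes only in part. Of 27 genes of cholesterol synthesis and uptake 17 fell and none rose (median -1.01). The groups were apart in 8 of the 27, and the mean level of the list in FCCP 1 lay below that in preconditioned 1. MVD, which makes isopentenyl diphosphate, had 128, 229 and 368 CPM under FCCP and 81.6, 70.2 and 99.1 CPM preconditioned (log2 change -1.53 ± 0.28, adjusted p = 0.00119), and EBP, a sterol isomerase, had 48.7, 62.4 and 100.3 CPM under FCCP and 19.5, 19.96 and 30.8 CPM preconditioned (log2 change -1.59 ± 0.31, adjusted p = 0.00162). MVK and PMVK, the kinases of the mevalonate pathway, fell, with log2 changes of -1.33 and -1.17, but PMVK missed the threshold with the length and GC trend removed, at -0.59 (adjusted p = 0.0803). With the set term 11 of the 27 fell. Among 17 fatty acid synthesis genes 6 fell and 2 rose (median -0.37). The mean level of this list too was lower in FCCP 1 than in preconditioned 1. The desaturase FADS2 had 96.4, 209.8 and 383 CPM under FCCP and 58.3, 26.99 and 21.6 CPM preconditioned (log2 change -2.69 ± 0.45, adjusted p = 0.000696), and the fatty acid synthase FASN had 281, 657 and 1454 CPM under FCCP and 249.6, 126 and 182 CPM preconditioned (log2 change -2.10 ± 0.44, adjusted p = 0.00240). In both, FCCP 1 was the lowest of its group and lay closest to the preconditioned libraries. FASN stood at 227 ± 35.96 CPM in controls and 1341 ± 349.9 CPM with preconditioning alone. SREBF1, the transcription factor that drives these genes, fell by 1.68, and the desaturase genes FADS1 and FADS3 fell, with log2 changes of -1.63 and -1.41. The 2 that rose were ACSL1, an acyl-CoA synthetase, with 20.4, 15.6 and 11.7 CPM under FCCP and 55.9, 48.8 and 35.99 CPM preconditioned (log2 change 1.56 ± 0.26, adjusted p = 0.000668), and ACACB, the acetyl-CoA carboxylase of the mitochondrial surface, with 10.3, 6.12 and 7.39 CPM under FCCP and 19.7, 23.9 and 18.9 CPM preconditioned (log2 change 1.39 ± 0.26, adjusted p = 0.00136).

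Nuclear genes of the respiratory chain were lower, though unevenly and with preconditioned 3 nearest to FCCP. Complex I had 15 of 38 genes lower and complexes III to V 23 of 36, none of either higher (medians -0.43 and -0.84). COX6B1, a subunit of cytochrome c oxidase, had 284, 316 and 342 CPM under FCCP and 85.1, 83.2 and 175 CPM preconditioned (log2 change -1.46 ± 0.30, adjusted p = 0.00200). ATP5MC1, one of the genes of the ATP synthase c ring, had 109.8, 132 and 189 CPM under FCCP and 57.5, 55.1 and 74.97 CPM preconditioned (log2 change -1.20 ± 0.20, adjusted p = 0.000681). NDUFS8, an iron-sulfur subunit of complex I, had 209, 193 and 305 CPM under FCCP and 92.1, 104 and 141 CPM preconditioned (log2 change -1.07 ± 0.21, adjusted p = 0.00168). In COX6B1 preconditioned 3 stood well above the other 2 of its group. For COX6B1, controls had 217 ± 78.4 CPM and preconditioning alone 91.9 ± 10.4 CPM. UQCRC1, a core subunit of complex III, and NDUFA11 of complex I fell, with log2 changes of -0.84 and -1.38, but UQCRC1 missed the threshold with the length and GC trend removed, at -0.40 (adjusted p = 0.0710). The catalytic beta subunit of the ATP synthase, ATP5F1B, had 577, 597 and 494 CPM under FCCP and 468, 417 and 545 CPM preconditioned and did not pass (adjusted p = 0.369). With the library set term 4 of 38 and 9 of 36 genes were lower, against 10.4% of all genes, and the medians were -0.24 and -0.35; complex I was then at the background. Without FCCP 1 and preconditioned 3 the medians were -0.80 and -1.24.

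The 13 mRNAs encoded in mitochondrial DNA followed the 2 libraries that stood apart, not the groups. MT-CO1 had 11306, 1089 and 1091 CPM under FCCP and 2206, 2700 and 10050 CPM preconditioned (log2 change 0.15 ± 0.76, adjusted p = 0.894). MT-ND4 had 12190, 4699 and 3108 CPM under FCCP and 1836, 2546 and 10035 CPM preconditioned (log2 change -0.47 ± 0.61, adjusted p = 0.568). MT-CO2 was the 1 called, with 5056, 2974 and 2330 CPM under FCCP and 489.8, 518 and 2142 CPM preconditioned (log2 change -1.72 ± 0.56, adjusted p = 0.0255), and it missed the threshold without FCCP 1, preconditioned 1 or preconditioned 2, where the adjusted p reached 0.106. MT-CO1 stood at 13157 ± 6994 CPM in controls and 3367 ± 752 CPM with preconditioning alone. The median over the 13 was -0.40; it was 0.38 without FCCP 1, -1.43 without preconditioned 3, -0.74 without both and 0.48 with the library set term, so that no direction can be given.

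Counts in the other mitochondrial groups lay nearer to the 17.9% higher and 17.7% lower of all genes, with changes in both directions. Of 29 import and chaperone genes 5 rose and 8 fell. HSPA9, the HSP70 of the matrix that pulls proteins in, had 418, 349 and 329 CPM under FCCP and 687, 658 and 743 CPM preconditioned (log2 change 0.93 ± 0.19, adjusted p = 0.00224), and the import receptor TOMM70 had 85.2, 68.5 and 65.9 CPM under FCCP and 137, 108 and 112 CPM preconditioned (log2 change 0.70 ± 0.16, adjusted p = 0.00448). Controls had 515 ± 135 CPM of HSPA9 and preconditioning alone 460.01 ± 18.002 CPM. HSPE1, the small partner of the matrix chaperonin, had 33.9, 57.1 and 35.9 CPM under FCCP and 8.57, 11.7 and 24.9 CPM preconditioned (log2 change -1.49 ± 0.34, adjusted p = 0.00410); TOMM22 and TIMM8B fell, with log2 changes of -0.96 and -1.36. Both directions held the groups apart in the genes named. Among dynamics and mitophagy genes 5 of 23 rose and 4 fell. MIEF1, an adaptor that recruits the fission GTPase DRP1, had 51.5, 29.03 and 27.1 CPM under FCCP and 138, 107 and 92.5 CPM preconditioned (log2 change 1.65 ± 0.28, adjusted p = 0.000779), and FKBP8, an outer membrane protein that can serve as a mitophagy receptor, had 772, 839 and 993 CPM under FCCP and 274, 244 and 355 CPM preconditioned (log2 change -1.58 ± 0.23, adjusted p = 0.000318). PINK1, the kinase that marks depolarised mitochondria, had 13.9, 13.03 and 18.02 CPM under FCCP and 21.7, 15.4 and 9.15 CPM preconditioned and did not pass (adjusted p = 0.914). Of 19 genes for calcium entry, the permeability pore and nucleotide carriers 4 fell and 1 rose. Besides UCP2, the outer membrane translocator protein TSPO had 429, 455 and 638 CPM under FCCP and 151, 143 and 255 CPM preconditioned (log2 change -1.47 ± 0.25, adjusted p = 0.000794), and SMDT1, a small subunit of the calcium uniporter, fell by 1.15. In the TCA cycle and pyruvate entry 5 of 28 rose and 8 fell. MPC1, a subunit of the mitochondrial pyruvate carrier, had 26.5, 20.01 and 16.8 CPM under FCCP and 41.1, 40.6 and 44.7 CPM preconditioned (log2 change 1.00 ± 0.21, adjusted p = 0.00264), and the aspartate aminotransferase GOT1 had 142, 70.2 and 89.96 CPM under FCCP and 270.2, 198 and 185 CPM preconditioned (log2 change 1.11 ± 0.22, adjusted p = 0.00203). SUCLG2, a subunit of succinyl-CoA synthetase, had 34.2, 43.5 and 68.5 CPM under FCCP and 19.5, 18.03 and 19.8 CPM preconditioned (log2 change -1.35 ± 0.23, adjusted p = 0.000779). OMA1, the protease named above, had 4.02, 7.96 and 11.3 CPM under FCCP and 2.03, 4.76 and 4.69 CPM preconditioned (log2 change -1.01 ± 0.36, adjusted p = 0.0406); its groups overlapped and the call was lost without FCCP 2, FCCP 3, preconditioned 1 or preconditioned 2 (adjusted p up to 0.213). DELE1 had 46.4, 57.3 and 52.8 CPM under FCCP and 66.8, 56.8 and 45.3 CPM preconditioned and did not pass (adjusted p = 0.656).

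Part of the enzymes against oxidants were lower, while the list of NRF2 targets moved both ways near the background. GCLC and GCLM, which make glutathione, were among its higher genes. Of 23 antioxidant enzymes 9 fell and 1 rose (median -0.62). The peroxiredoxin PRDX5, of mitochondria and peroxisomes, had 233, 273 and 297 CPM under FCCP and 104, 99.03 and 131 CPM preconditioned (log2 change -1.26 ± 0.19, adjusted p = 0.000391); TXN2, the mitochondrial thioredoxin, had 152, 169 and 168 CPM under FCCP and 63.3, 66.2 and 90.7 CPM preconditioned (log2 change -1.15 ± 0.18, adjusted p = 0.000455). SELENOW, a selenoprotein, and GLRX, a glutaredoxin, fell, with log2 changes of -1.19 and -1.31. With the set term 5 of the 23 fell. NRF2 is the transcription factor, encoded by NFE2L2, that drives detoxifying genes. Of 20 genes of its list 4 rose and 4 fell, near the 17.9% and 17.7% of all genes. GCLC and GCLM, the 2 subunits of the enzyme that limits glutathione synthesis, rose: GCLC had 51.7, 24.2 and 25.5 CPM under FCCP and 68.7, 85.8 and 95.9 CPM preconditioned (log2 change 1.31 ± 0.25, adjusted p = 0.00134). GCLM had 101, 84.4 and 69.7 CPM under FCCP and 195, 183 and 157 CPM preconditioned (log2 change 1.07 ± 0.24, adjusted p = 0.00349). GCLC stood at 30.7 ± 1.81 CPM in controls and 30.8 ± 1.68 CPM with preconditioning alone. SQSTM1, the autophagy receptor p62, had 105, 56.4 and 68.8 CPM under FCCP and 356, 283 and 157 CPM preconditioned (log2 change 1.79 ± 0.45, adjusted p = 0.00708), and under the library set term its change was 0.72 and missed the threshold (adjusted p = 0.0667). TKT, the transketolase of the pentose phosphate pathway and also an NRF2 target, had the opposite sign, with 809, 578 and 714 CPM under FCCP and 300.3, 251 and 367 CPM preconditioned (log2 change -1.19 ± 0.20, adjusted p = 0.000746). HMOX1, haem oxygenase 1, had 57.3, 42.5 and 57.8 CPM under FCCP and 69.3, 119 and 108 CPM preconditioned (log2 change 0.91 ± 0.45, adjusted p = 0.125); the groups did not overlap but the change did not pass. NFE2L2 itself had 60.3, 99.7 and 137 CPM under FCCP and 127, 119 and 97.7 CPM preconditioned and did not pass (adjusted p = 0.512).

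Part of the ribosomal protein genes were lower and part of the tRNA synthetases higher, counts that fell to the background under the library set term for all but the mitochondrial ribosomal proteins. Of 46 cytosolic ribosomal protein genes 23 fell and none rose (median -0.64), and of 35 mitochondrial ones 15 fell and 1 rose (-0.60). RPL7A had 2632, 2319 and 2952 CPM under FCCP and 1262, 997 and 1787 CPM preconditioned (log2 change -0.97 ± 0.23, adjusted p = 0.00522), and RPL27 had 644, 595 and 769.8 CPM under FCCP and 323, 280.5 and 464 CPM preconditioned (log2 change -0.91 ± 0.21, adjusted p = 0.00436). MRPL54, of the mitochondrial large subunit, had 55.1, 65.2 and 70.9 CPM under FCCP and 15.9, 18.4 and 31.6 CPM preconditioned (log2 change -1.54 ± 0.26, adjusted p = 0.000755). Preconditioned 3 was the highest of its group in these 3 genes. RPL7A stood at 1815 ± 324 CPM in controls and 1269 ± 126 CPM with preconditioning alone. The cytosolic ones have many processed copies in the genome, which can take or share their reads. In that fit 4 of the 46 and 7 of the 35 were lower, against 10.4% of all genes, with medians of -0.29 and -0.40; without FCCP 1 and preconditioned 3 they were 40 and 21. Among 20 cytosolic tRNA synthetases 7 rose and 1 fell. IARS1, the isoleucine enzyme, had 215, 119 and 104 CPM under FCCP and 378, 294 and 296 CPM preconditioned (log2 change 1.14 ± 0.27, adjusted p = 0.00498). Under the library set term 2 of the 20 rose, against 11.3% of all genes, IARS1 at an adjusted p of 0.0450. With the trend of length and GC content removed 3 rose, against 15.4%.

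**Figure D4:**
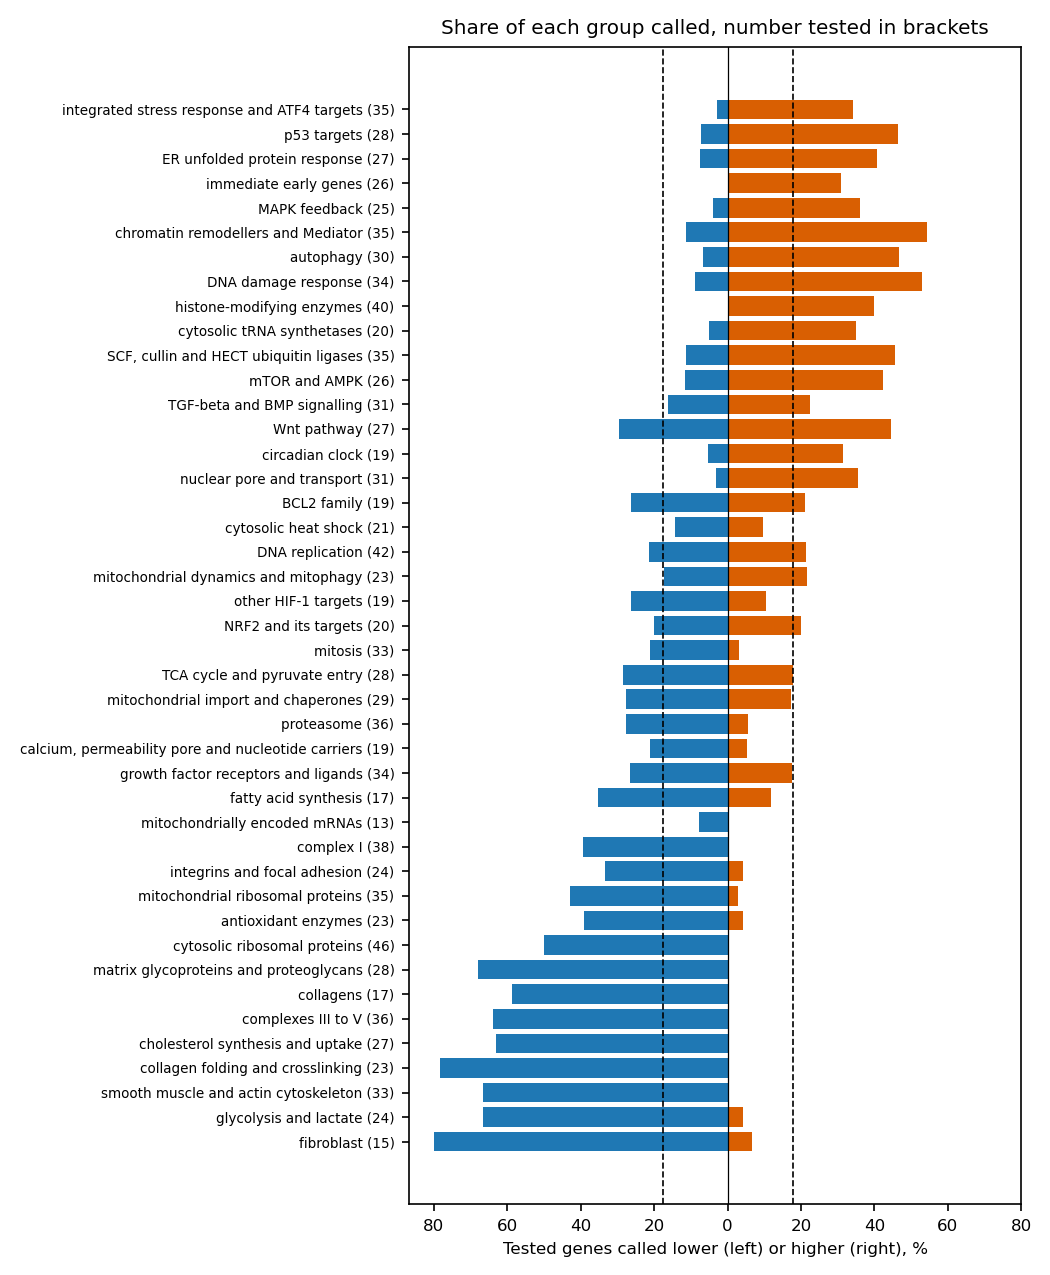
Percentage of the tested genes of each described group that were called higher (orange, to the right) or lower (blue, to the left) in the preconditioned libraries. Dashed lines mark the background over all 16756 genes, 17.9% higher and 17.7% lower.

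Part of the integrated stress response genes were higher, and FCCP 1 lay near the preconditioned values in many of them. Of 35 genes 12 rose and 1 fell (median 0.71). SLC7A1, the transporter of cationic amino acids, had 199, 89.9 and 84.4 CPM under FCCP and 467, 340.5 and 238 CPM preconditioned (log2 change 1.49 ± 0.33, adjusted p = 0.00361), with 0.89 and an adjusted p of 0.0506 under the library set term. CTH, the last enzyme of transsulfuration, had 22.5, 7.77 and 5.32 CPM under FCCP and 35.6, 34.01 and 41.9 CPM preconditioned (log2 change 1.65 ± 0.39, adjusted p = 0.00466). PSAT1, which makes serine, had 411, 147 and 119 CPM under FCCP and 504, 491 and 558 CPM preconditioned (log2 change 1.20 ± 0.33, adjusted p = 0.0110), and its call was lost without FCCP 2 or FCCP 3 (adjusted p up to 0.0716). In all 3 genes FCCP 1 stood far above FCCP 2 and 3 but below the preconditioned libraries. Controls had 353 ± 37.8 CPM of PSAT1 and preconditioning alone 169 ± 11.8 CPM. ATF4 itself had 2270, 965 and 758 CPM under FCCP and 1228, 1270 and 2482 CPM preconditioned (log2 change 0.32 ± 0.35, adjusted p = 0.499), with the highest value of each group in FCCP 1 and preconditioned 3. DDIT3 (CHOP), a later factor of the response, had 71.5, 18.04 and 13.2 CPM under FCCP and 71.5, 66.5 and 110.003 CPM preconditioned (log2 change 1.27 ± 0.44, adjusted p = 0.0332). Its groups overlapped, and leaving out any library but FCCP 1 ended the call (adjusted p up to 0.157), while without both FCCP 1 and preconditioned 3 the change was 2.14 (adjusted p = 4.26e-05). ATF3 had 285, 87.3 and 56.1 CPM under FCCP and 121, 203 and 355 CPM preconditioned (log2 change 0.67 ± 0.47, adjusted p = 0.279). Without those 2 libraries the median of the list was 1.14 and 22 of the 35 rose, whereas under the library set term 6 did. Leaving out 1 library at a time gave medians of 0.39 to 1.18. PYCR1, the proline enzyme, was the 1 that fell, with 68.2, 62.6 and 115 CPM under FCCP and 45.9, 40.3 and 32.9 CPM preconditioned (log2 change -1.04 ± 0.22, adjusted p = 0.00266); with the length and GC trend removed it missed the threshold, at -0.50 (adjusted p = 0.0852). The motif TGATGNAA, to which ATF4 is known to bind with its partners, was on either strand in the 250 bases before the start of 3 of the 28 listed genes with an entry and in none of the 10 that rose, against 3.14% of all promoters.

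The endoplasmic reticulum's own unfolded protein response had 11 of 27 genes higher and 2 lower (median 0.65). Its sensors ERN1 (IRE1) and ATF6 were among those that rose: ERN1 had 32.3, 10.9 and 9.67 CPM under FCCP and 78.1, 62.7 and 59.2 CPM preconditioned (log2 change 1.92 ± 0.43, adjusted p = 0.00349). ATF6 had 66.6, 54.8 and 46.8 CPM under FCCP and 176, 129.6 and 89.8 CPM preconditioned (log2 change 1.23 ± 0.28, adjusted p = 0.00372). In ERN1 FCCP 1 was well above FCCP 2 and 3 yet below the lowest preconditioned value. ERN1 stood at 15.3 ± 7.89 CPM in controls and 22.5 ± 6.17 CPM with preconditioning alone. EDEM3, a mannosidase that marks misfolded proteins for degradation, had 37.8, 28.8 and 25.4 CPM under FCCP and 72.9, 79.9 and 59.9 CPM preconditioned (log2 change 1.21 ± 0.18, adjusted p = 0.000353), and SEL1L, the scaffold of an ubiquitin ligase there, had 70.6, 65.03 and 46.3 CPM under FCCP and 204, 144 and 91.2 CPM preconditioned (log2 change 1.27 ± 0.28, adjusted p = 0.00334); under the library set term SEL1L missed the threshold (adjusted p = 0.0577). The lumenal chaperone HSPA5 (BiP) had 1583, 748 and 484 CPM under FCCP and 1539, 1605 and 1712 CPM preconditioned (log2 change 0.79 ± 0.37, adjusted p = 0.109), with FCCP 1 inside the preconditioned range. DNAJC3, a partner of HSPA5, rose by 1.47. Under the set term 7 of the 27 rose and 1 fell. Among 21 cytosolic heat shock genes 2 rose and 3 fell. The small heat shock protein HSPB1 had 1257, 1212 and 1363 CPM under FCCP and 270.1, 299.6 and 805 CPM preconditioned (log2 change -1.48 ± 0.33, adjusted p = 0.00356). HSPA1A and HSPA1B, whose sequences are near-identical, had FCCP 1 far below FCCP 2 and 3: HSPA1A had 36.8, 700.3 and 508 CPM under FCCP and 65.2, 51.5 and 109 CPM preconditioned (log2 change -2.46 ± 0.81, adjusted p = 0.0272). That call was lost without FCCP 2, FCCP 3, preconditioned 1 or preconditioned 2 (adjusted p up to 0.117).

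Among p53 targets 13 of 28 rose and 2 fell (median 0.70). RRM2B, the ribonucleotide reductase subunit for repair, had 48.9, 37.6 and 30.7 CPM under FCCP and 99.8, 91.7 and 67.1 CPM preconditioned (log2 change 1.14 ± 0.20, adjusted p = 0.000833). TIGAR, a fructose bisphosphatase, had 12.4, 2.37 and 3.18 CPM under FCCP and 21.2, 19.5 and 25.6 CPM preconditioned (log2 change 1.89 ± 0.52, adjusted p = 0.0115), and lost its call without FCCP 2 or FCCP 3 (adjusted p up to 0.0630) and under the library set term. The FCCP values were lower in both genes, with FCCP 1 the highest of its group. Controls had 40.8 ± 4.43 CPM of RRM2B and preconditioning alone 55.4 ± 3.11 CPM. CDKN1A (p21), the target that stops the cell cycle, had 226, 242 and 289.97 CPM under FCCP and 281, 252 and 162 CPM preconditioned and did not pass (adjusted p = 0.669). The library set term left 5 of the 28 higher and 2 lower.

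The BCL2 family, which decides on release of cytochrome c from mitochondria, had 4 of 19 genes higher and 5 lower, shares near the 17.9% and 17.7% of all genes. BAX, one of its 2 pore formers, had 204, 274 and 314 CPM under FCCP and 90.5, 111 and 146 CPM preconditioned (log2 change -1.19 ± 0.20, adjusted p = 0.000797), whereas BAK1, the other, had 55.02, 46.7 and 63.9 CPM under FCCP and 59.999, 53.3 and 41.2 CPM preconditioned and did not pass (adjusted p = 0.707). BOK, a relative of both, had 75.5, 133 and 195 CPM under FCCP and 42.3, 28.8 and 23.8 CPM preconditioned (log2 change -2.09 ± 0.31, adjusted p = 0.000352). BCL2L1 (BCL-XL), a guard against the pore, had 63.8, 70.1 and 94.2 CPM under FCCP and 34.1, 38.4 and 49.3 CPM preconditioned (log2 change -0.90 ± 0.19, adjusted p = 0.00276). The genes named as falling were lower in every preconditioned library. BAX stood at 154 ± 19.5 CPM in controls and 139 ± 9.45 CPM with preconditioning alone. BCL2L11 (BIM), a BH3-only activator, had 29.4, 7.04 and 8.49 CPM under FCCP and 35.96, 39.8 and 52.996 CPM preconditioned (log2 change 1.52 ± 0.40, adjusted p = 0.00890); without FCCP 3 its adjusted p was 0.0543. BCL2 was low, with 0.902, 0.856 and 0.552 CPM under FCCP and 4.98, 3.98 and 2.20 CPM preconditioned (log2 change 2.26 ± 0.44, adjusted p = 0.00165). MCL1 had 384, 279 and 213 CPM under FCCP and 458, 389 and 446 CPM preconditioned (log2 change 0.56 ± 0.23, adjusted p = 0.0728), a difference that did not pass although the groups did not overlap.

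More autophagy and nutrient signalling genes were called higher than lower. Of 30 autophagy genes 14 rose and 2 fell (median 0.60). ULK1, the kinase that starts autophagosomes, had 168, 88.2 and 84.9 CPM under FCCP and 349, 325 and 310.1 CPM preconditioned (log2 change 1.53 ± 0.23, adjusted p = 0.000352). RB1CC1 (FIP200), its scaffold, had 109, 68.8 and 72.6 CPM under FCCP and 269, 199.96 and 164 CPM preconditioned (log2 change 1.33 ± 0.22, adjusted p = 0.000702), and ATG2B, which moves lipid into the growing membrane, had 30.9, 23.7 and 15.7 CPM under FCCP and 59.1, 65.3 and 64.7 CPM preconditioned (log2 change 1.43 ± 0.22, adjusted p = 0.000426). All 3 kept the groups apart, with FCCP 1 the highest of the FCCP libraries. ULK1 stood at 103 ± 13.5 CPM in controls and 113 ± 6.55 CPM with preconditioning alone. UVRAG rose by 1.03. Under the set term 8 of the 30 rose and none fell. Of 26 mTOR and AMPK genes 11 rose and 3 fell, and under the set term 9 rose and 1 fell. FLCN (folliculin) and its partners FNIP1 and FNIP2, which control mTORC1 at the lysosome, rose together: FLCN had 51.97, 31.4 and 31.7 CPM under FCCP and 73.2, 80.6 and 103 CPM preconditioned (log2 change 1.16 ± 0.23, adjusted p = 0.00177), and FNIP1 and FNIP2 rose by 1.40 and 1.26. RPS6KB1, the S6 kinase, rose by 0.88, and MLST8, a subunit of both mTOR complexes, had 71.1, 68.7 and 95.1 CPM under FCCP and 25.3, 21.6 and 29.6 CPM preconditioned (log2 change -1.62 ± 0.20, adjusted p = 0.000220), the opposite direction.

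Early response genes and the feedback of the MAP kinase pathway were higher in part. Of 26 immediate early genes 8 rose and none fell (median 0.65). FOSB had 32.5, 27.9 and 18.02 CPM under FCCP and 30.2, 502 and 362 CPM preconditioned (log2 change 3.51 ± 0.68, adjusted p = 0.00152); preconditioned 1 lay within the FCCP values, and only preconditioned 2 and 3 above them. FOSB stood at 2.62 ± 1.41 CPM in controls and 2.31 ± 0.942 CPM with preconditioning alone. KLF4 had 18.9, 12.3 and 12.6 CPM under FCCP and 28.03, 71.9 and 92.3 CPM preconditioned (log2 change 2.13 ± 0.44, adjusted p = 0.00207). EGR1 had 586, 539 and 213 CPM under FCCP and 921, 1226 and 628 CPM preconditioned (log2 change 1.05 ± 0.41, adjusted p = 0.0543), all preconditioned values above all FCCP values. SRF, the factor that binds the CArG box of such genes and of actin genes, had 74.6, 39.8 and 51.5 CPM under FCCP and 113, 109 and 101 CPM preconditioned (log2 change 0.96 ± 0.21, adjusted p = 0.00346). Its own promoter at chr6:43171019-43171268 (plus strand, same build and source) carried 2 matches, shown in capitals, the second ending at the last base before the start.
SRF: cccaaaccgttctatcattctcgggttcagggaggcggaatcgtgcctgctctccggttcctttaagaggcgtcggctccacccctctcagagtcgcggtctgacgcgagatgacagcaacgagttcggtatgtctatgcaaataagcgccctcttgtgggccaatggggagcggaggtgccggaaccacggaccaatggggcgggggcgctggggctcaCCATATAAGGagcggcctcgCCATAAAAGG
On either strand, the CArG box was in 1.16% of all promoters and in 2 of the 18 early genes with an entry, EGR1 and SRF. Of 25 MAPK feedback genes 9 rose and 1 fell. SPRED2, which restrains RAF, had 30.7, 20.1 and 24.9 CPM under FCCP and 71.7, 55.6 and 44.9 CPM preconditioned (log2 change 1.19 ± 0.21, adjusted p = 0.00100). The ETS factor ETV5, a target of the pathway, had 122, 36.1 and 31.1 CPM under FCCP and 262, 196 and 183 CPM preconditioned (log2 change 1.76 ± 0.42, adjusted p = 0.00487). RGS4, which ends G protein signals, was the 1 that fell, with 12.98, 21.3 and 26.3 CPM under FCCP and 5.21, 3.57 and 6.05 CPM preconditioned (log2 change -2.04 ± 0.38, adjusted p = 0.00134). Of 27 Wnt pathway genes 12 rose and 8 fell. BCL9, a coactivator of beta-catenin, had 9.58, 9.74 and 9.73 CPM under FCCP and 27.97, 22.4 and 17.4 CPM preconditioned (log2 change 1.22 ± 0.20, adjusted p = 0.000623), and the nuclear factor LEF1 had 19.98, 21.2 and 22.5 CPM under FCCP and 50.4, 48.5 and 31.5 CPM preconditioned (log2 change 1.03 ± 0.21, adjusted p = 0.00190). The secreted inhibitor DKK3 and the factor TCF7L1 fell, with log2 changes of -0.81 and -0.98. Under the set term 6 of 26 immediate early genes rose and none fell. In that fit 3 of 25 MAPK feedback genes rose and 1 fell, and 5 of 27 Wnt genes rose and 5 fell. Over all genes it called 11.3% higher and 10.4% lower, so the MAPK feedback counts were near or below the background.

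Genes of chromatin and of DNA repair were higher in large part. Of 40 histone methyltransferases, demethylases and acetyltransferases 16 rose and none fell, and of 35 chromatin remodellers and Mediator genes 19 rose and 4 fell (medians 0.56 and 0.64). The acetyltransferase KAT6A had 36.7, 20.1 and 15.5 CPM under FCCP and 63.6, 60.9 and 67.3 CPM preconditioned (log2 change 1.41 ± 0.25, adjusted p = 0.000980), and EP300, the coactivator p300, had 87.01, 37.1 and 45.1 CPM under FCCP and 144, 129 and 131 CPM preconditioned (log2 change 1.26 ± 0.27, adjusted p = 0.00276). SMARCA2, an ATPase of the BAF remodeller, had 47.5, 50.2 and 44.3 CPM under FCCP and 136, 119 and 98.3 CPM preconditioned (log2 change 1.31 ± 0.18, adjusted p = 0.000284). The groups were apart in each of them. SMARCA2 stood at 52.7 ± 10.1 CPM in controls and 71.7 ± 6.68 CPM with preconditioning alone. Among remodeller subunits the DNA-binding ARID1A and ARID2 rose by 1.01 and 1.17. The core subunit SMARCB1 had 310.1, 249 and 303 CPM under FCCP and 139.7, 158 and 202 CPM preconditioned (log2 change -0.79 ± 0.20, adjusted p = 0.00651), a call lost under the library set term (adjusted p = 0.0616). Of 34 DNA damage genes 18 rose and 3 fell. The helicases WRN and BLM had 21.02, 19.7 and 17.4 CPM under FCCP and 47.3, 46.95 and 46.6 CPM preconditioned (log2 change 1.27 ± 0.19, adjusted p = 0.000352) and 42.5, 24.8 and 28.8 CPM under FCCP and 75.9, 75.5 and 94.97 CPM preconditioned (log2 change 1.36 ± 0.21, adjusted p = 0.000398). The end-joining protein XRCC5 (Ku80) fell by 0.83. With the library set term 16 of 40, 12 of 35 and 15 of 34 genes were higher in these 3 groups.

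Of the cell cycle groups, DNA replication moved both ways near the background, while few mitosis genes rose. Of 42 DNA replication genes 9 rose and 9 fell. Of 33 mitosis genes 7 fell (21.2%) and 1 rose (3.03%), against 17.7% and 17.9% of all genes. By library totals 5 mitosis genes fell and 7 rose, against 13.3% and 23.8% of all genes. TK1, the thymidine kinase of S phase, had 792, 796 and 1035 CPM under FCCP and 326, 260.1 and 295 CPM preconditioned (log2 change -1.57 ± 0.25, adjusted p = 0.000546), and CCNE2 (cyclin E2) had 7.15, 4.67 and 4.42 CPM under FCCP and 18.7, 13.8 and 11.5 CPM preconditioned (log2 change 1.44 ± 0.26, adjusted p = 0.00104). TK1 stood at 523 ± 185 CPM in controls and 477 ± 82.4 CPM with preconditioning alone. CCNB1, the cyclin of mitotic entry, had 295, 377 and 419 CPM under FCCP and 182, 126 and 175 CPM preconditioned (log2 change -1.18 ± 0.20, adjusted p = 0.000671), and KIF20A, a motor of cell division, fell by 1.31. The groups were apart in these genes, while the proliferation marker MKI67 had 228, 237 and 262 CPM under FCCP and 355, 234 and 247 CPM preconditioned and did not pass (adjusted p = 0.443).

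The direction of change ran with gene length. By their longest annotated transcript, the genes that rose had a median of 4671 bases and a GC content of 44.1%, those that fell 2587 bases and 54.6%, and all tested genes 3268 bases and 48.5%. Among 5 equal classes of length, the shortest had 3.65% risen and 24.2% fallen genes; in the longest 33.3% rose and 10.9% fell. After removal of a smooth trend on length and GC content from every library, 5083 genes were called, 4251 of them also called before. Of the groups above, the counts then were 10 of 17 lower for collagens, 15 of 24 for glycolysis, 22 of 33 for actin genes, 17 of 36 for complexes III to V and 13 of 46 for cytosolic ribosomal proteins. They were 15 of 40 higher for histone-modifying enzymes, 12 of 35 for remodellers, 10 of 34 for DNA damage, 11 of 30 for autophagy and 14 of 35 for the integrated stress response. Over all genes 15.4% were higher and 16% lower. Counts also went down in the tRNA synthetases (3 of 20 higher), Wnt genes (6 of 27), mitochondrial ribosomal proteins (8 of 35 lower) and antioxidant enzymes (6 of 22), and 5 remodellers fell. Whether this dependence belongs to the cells or to the libraries was not tested.

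**Figure D5:**
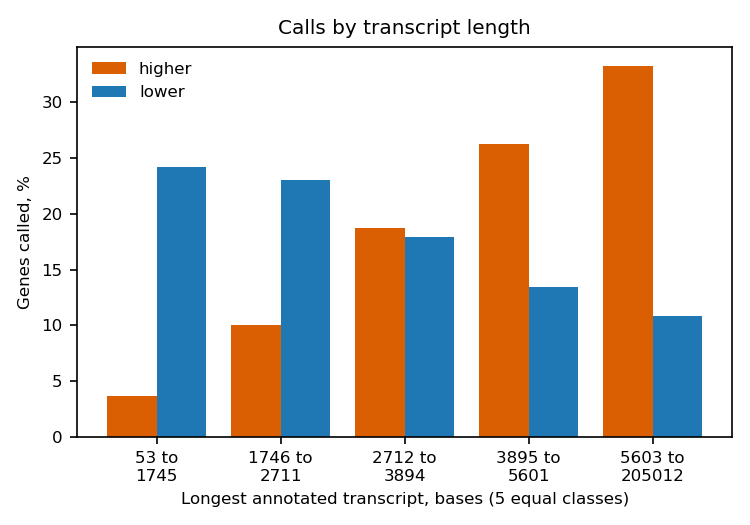
Percentage of genes called higher (orange) and lower (blue) in the preconditioned libraries in 5 equal classes of the tested genes by length of the longest annotated transcript, shortest to the left. The share called higher climbs from 3.65% to 33.3% and the share called lower goes from 24.2% to 10.9%.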

How the data were processed

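Polyadenylated RNA was captured, fragmented and copied with random primers, per the labels' protocols, which do not say whether the second strand was marked. The deposited files hold raw read counts per Ensembl gene, made by the authors with HISAT2, HTSeq and hg19, as the submitters' processing notes name them; their versions, the annotation release and the strand setting are not given in the sources used here, and a gene and an overlapping or antisense one cannot always be told apart. Rows for unassigned reads were left out. Reads without a feature made up 3.01% to 4.19% of the reads in the 6 compared files. Ambiguous reads made up 12.1%, 12.2% and 12.4% in FCCP 1 to 3 and 11.2%, 11.2% and 11.5% in preconditioned 1 to 3. Every FCCP library thus lay above every preconditioned one in this share, and the cause was not tested. Symbols came from a table of Ensembl names (42338 of 63241 genes matched), and lengths and GC content from the longest GENCODE transcript, for 16163 of the tested genes. Promoters were read from RefSeq.

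Counts were filtered with filterByExpr (16756 genes left), scaled by TMM and tested with edgeR 4.0.16 (R 4.3.3) by its quasi-likelihood test in one fit over all 13 libraries, so that the 7 other libraries enter the spread. The contrast was preconditioning+FCCP minus FCCP, with Benjamini-Hochberg adjustment over all genes tested and calls at an adjusted p under 0.05; every adjusted p printed is from this test unless another is named. CPM are TMM-scaled. The test was checked on simulated counts. Gene lists (62) and marker lists (5), like the comparison itself, were chosen with earlier results of these data known. Named genes are the 12 largest rises and falls among called genes with a mean of 20 CPM or more in the higher group and no overlap, the 6 smallest adjusted p-values each way, and in each list up to 6 called members each way by adjusted p and 4 uncalled ones of highest level, with a few genes fixed by name; only some of them are printed, and a few members of the lists are not reported here. Alternatives were other scalings, filters, tools (DESeq2 1.42.0 and limma-voom, limma 3.58.1), library subsets, a replicate block, a library set term, a stricter threshold and removal of a length and GC trend. No list was tested as a set.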

Additional observations from a re-analysis of the deposited data

How the results depend on the processing

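Of the 162 genes named as changed, 153 were called with each of the 6 compared libraries left out in turn, and none changed sign under any alternative run. With the library set term 12 lost the call (BNIP3, CA9, COL11A1, DCN, MT-CO2, OMA1, PDK1, SEL1L, SLC7A1, SMARCB1, SQSTM1 and TIGAR), with the length and GC trend removed 7 (EGLN1, HSPA1A, HSPA1B, PMVK, PSMB6, PYCR1 and UQCRC1), and by library totals 2 (ITGA5 and OMA1). Without at least 1 library 9 lost it; BCL2L11, DDIT3, EGLN1, HSPA1A, MT-CO2, OMA1, PSAT1 and TIGAR are given above with their values, and HSPA1B reached an adjusted p of 0.142 (edgeR's quasi-likelihood test). Over all genes the count of 5976 ranged from 3848 to 6943 with 1 of the 6 libraries left out. It was 7113 without control 3, 3629 with a term for the library set and 3161 at an adjusted p under 0.01. In the higher-share set alone preconditioned 3 is the 1 library of its group. Of the 5976 called genes 5952 were tested in that set, and 5928 of them kept their sign. Its libraries also entered the fit that called the genes, so this match is partly built in. It does not show that the calls hold, which 1 library in a group cannot show. The count of called genes was 4273 in a fit of the 6 libraries alone, 6585 with DESeq2, 6080 with limma-voom and 6210 with library totals. With the replicate block it was 4902, 4862 of them among the 5976, and 159 of the 162 named genes kept their call. Whether the numbers pair the samples is not on the labels. Deviations of same-numbered libraries from their group means correlated at -0.147, 0.158 and -0.114 across genes. FCCP 1 went best with preconditioned 3 (0.208). With 3 libraries a group and 1 standing apart in each, these correlations cannot decide on pairing. The difference in mitochondrial share, 0.03 percentage points, ranged from -1.50 to 1.61 with 1 library left out. Of 859 list medians under alternatives 718 moved by less than the spread, and in groups changed mainly one way 4 turned sign: other HIF-1 targets at 0.044 by library totals, 0.23 with the set term and 0.034 with the length and GC trend removed, and proteasome genes at 0.0027 in the higher-share set alone. The medians of mitochondrially encoded mRNAs, mitochondrial import, mitochondrial dynamics, NRF2 targets, cytosolic heat shock and DNA replication, groups that moved both ways or were seldom called, also took both signs.

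Several genes named as not passing took both signs. With 1 library left out the log2 change of ATF4 ranged from -0.12 to 0.95, BAK1 from -0.23 to 0.018, CDKN1A from -0.29 to 0.058, DELE1 from -0.033 to 0.23, FN1 from -0.15 to 0.23 and HK2 from -0.077 to 0.86. That of MKI67 ranged from -0.015 to 0.30, MT-CO1 from -0.91 to 2.20, MT-ND4 from -1.63 to 0.30, NFE2L2 from -0.050 to 0.50, PINK1 from -0.29 to 0.29 and VEGFA from -0.11 to 0.76. The set term gave -0.17 for DELE1, -0.038 for FN1, 0.49 for MT-ND4, -0.053 for NFE2L2 and -0.45 for PINK1, and the higher-share set alone -0.21, -0.11, 0.57, -0.015 and -0.71. Removing the length and GC trend gave 0.27 for BAK1, 0.22 for CDKN1A, -0.11 for DELE1, -0.35 for FN1, -0.10 for MKI67 and -0.074 for PINK1. By library totals BAK1 was at 0.10 and CDKN1A at 0.077, without FCCP 1 and preconditioned 3 BAK1 was at 0.028, and limma-voom put PINK1 at -0.027. The cause of these shifts was not tested. With 3 libraries a group the mitochondrial share could not reach significance.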

Other observations

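Ubiquitin ligases and the proteasome, the enzyme families that mark proteins and the complex that degrades them, changed in unlike directions. The proteasome count was near the background once the length and GC trend was removed. Of 35 SCF, cullin and HECT ligase genes 16 rose and 4 fell (median 0.51), against 17.9% and 17.7% of all genes tested. KLHL20, an adaptor of cullin 3, had 21.6, 17.9 and 18.6 CPM under FCCP and 58.9, 61.3 and 48.2 CPM preconditioned (log2 change 1.54 ± 0.20, adjusted p = 0.000248), and the HECT ligase TRIP12 had 160.2, 119 and 108 CPM under FCCP and 309, 244 and 237 CPM preconditioned (log2 change 1.03 ± 0.19, adjusted p = 0.00128). CUL4B, a cullin scaffold, fell by 0.85 (adjusted p = 0.00353), with 176, 167 and 172 CPM under FCCP and 102, 77.9 and 107 CPM preconditioned. The groups did not overlap in these 3 genes. Of 36 proteasome genes 2 rose and 10 fell (median -0.20). PSMB6, the beta 1 subunit that cuts after acidic residues, had 277, 277 and 285 CPM under FCCP and 169, 159.99 and 182 CPM preconditioned (log2 change -0.72 ± 0.17, adjusted p = 0.00435); with the length and GC trend removed it missed the threshold, at -0.26 (adjusted p = 0.304). PSMB4, another beta subunit, fell by 0.93. After removal of that trend 9 of 35 ligase genes rose and 5 fell (median 0.23). Of 36 proteasome genes 1 then rose and 6 fell, against 15.4% higher and 16% lower of all genes. Among 31 nuclear pore and transport genes 11 rose and 1 fell (median 0.33). NUP133, a scaffold nucleoporin, had 43.6, 39.95 and 36.5 CPM under FCCP and 97.3, 83.1 and 62.9 CPM preconditioned (log2 change 1.02 ± 0.18, adjusted p = 0.000822).

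Single genes of signalling and of the clock differed too. Of 31 TGF-beta and BMP genes 7 rose and 5 fell, near the shares over all genes (17.9% and 17.7%). SMAD3, which carries the TGF-beta signal to the nucleus, had 118, 123 and 81.3 CPM under FCCP and 48.996, 50.6 and 50.8 CPM preconditioned (log2 change -1.10 ± 0.18, adjusted p = 0.000627); the type I BMP receptor ACVR1 had 25.5, 23.5 and 23.7 CPM under FCCP and 50.8, 48.5 and 38.7 CPM preconditioned (log2 change 0.92 ± 0.18, adjusted p = 0.00136). Of 34 growth factor and receptor genes 6 rose and 9 fell, with the share higher at the background. IGFBP4, which binds insulin-like growth factors, had 464, 371 and 494 CPM under FCCP and 200.1, 178 and 208 CPM preconditioned (log2 change -1.18 ± 0.17, adjusted p = 0.000342), and VEGFB, a relative of VEGFA, fell by 1.69. Among 19 clock genes 6 rose and 1 fell. BMAL1, the activator at the centre of the clock, had 18.4, 15.5 and 12.01 CPM under FCCP and 40.6, 36.7 and 29.8 CPM preconditioned (log2 change 1.22 ± 0.24, adjusted p = 0.00153). CRY1, one of the repressors, rose by 0.99. With a term for the library sets, 11.3% of all genes were higher and 10.4% lower. In that fit 8 of 35 ligase genes rose and 2 fell, 6 of 36 proteasome genes fell and 7 of 31 pore and transport genes rose. Of 31 TGF-beta and BMP genes 2 rose and 4 fell, both near or below the background. Of 34 growth factor and receptor genes 3 rose, below the background, and 9 fell, and of 19 clock genes 4 rose. With the length and GC trend removed, 5 of 31 pore and transport genes rose and 5 fell, near the 15.4% and 16% of all genes.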
